A study of Mus musculus with 354 samples.

Results

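The arrays compared here are those of IL16912 and IL16012, 2 strains of the Collaborative Cross, a set of 45 inbred mouse lines here, each a different mixture of the same founders. They are the arrays whose source label names either strain, 16 of 354, with 8 arrays per strain. The pair was chosen by the correlation of the liver expression profiles of the 2 strains, measured on these same arrays. That likeness is therefore given below as a description without a test, and the number of genes found to differ is bounded by the choice. The labels state no kinship between IL16912 and IL16012, and the word related refers here to likeness of the profiles only. In both strains 4 males received vehicle and 4 received tolvaptan, which blocks the V2 receptor for vasopressin and is the drug whose liver injury the study set out to examine. Livers were taken at 24 h from mice that were about 8 to 10 weeks old when dosed and had fasted for about 18 h. Each array holds RNA from the median lobe of 1 mouse.

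The 2 largest differences between the strains were in Gstm2 and Gstm5, and that of Hamp was among the next. Mu-class glutathione S-transferases, the Gstm genes, join glutathione to electrophilic compounds, and the conjugates are later trimmed and acetylated into mercapturic acids. The Gstm genes lie side by side on mouse chromosome 3. Hepcidin, the product of Hamp, is the liver hormone that limits the export of iron through ferroportin.

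Values are log2 intensities after RMA, a method that corrects background, equalizes arrays by quantiles and summarizes the probes of a probe set. The 16 array medians lay between 2.85 and 2.95, and the typical median over all arrays was 2.89, which serves below as a mark of dim signal. Strain levels were compared in a limma fit over all 354 arrays, with a mean per group of strain and treatment and a term for the scan date, and a difference is IL16912 minus IL16012, averaged over both treatments. After scan 1, which holds 2 arrays of each strain, the strains were never scanned together. The other 6 IL16912 arrays are in scans 3 and 6 and the other 6 IL16012 arrays in scan 4, so those comparisons rest on scan effects estimated from other strains. Array quality was judged from relative log expression, the deviation of each probe set from its median over arrays. The spread of this measure (its interquartile range) was 0.606 for IL16912 vehicle animal 193 and 0.602 for IL16012 tolvaptan animal 417, against 0.321 to 0.482 on the other 14. The 95th percentile of animal 417 was 8.23, against 8.72 or more on the other 15. The mean level of 9 hepatocyte markers was 11.99 to 12.28 in IL16912 and 11.57 to 12.31 in IL16012. Of the marker lists, that of neutrophils had the median difference farthest from 0, -0.41 with 2 of 9 positive, and its mean level was 3.04 to 3.24 in IL16912 and 3.06 to 3.74 in IL16012. That of erythroid cells followed with -0.19 and 1 of 4 positive, at 5.44 to 6.12 and 5.51 to 6.67. The medians of the other 12 lists lay between -0.08 and 0.12. Of 14 marker lists for liver and other cell types, 1 held a called gene, the fibroblast gene Dcn, at -0.64 ± 0.17 (SE, adjusted p = 0.0260, limma).

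Of 14125 genes tested, 147 (1.04%) differed in array signal between IL16912 and IL16012 at an adjusted p under 0.05 (limma with Benjamini-Hochberg adjustment). IL16912 was higher in 97 of them (0.687%) and lower in 50 (0.354%), and 114 differed by at least 1.5 fold. The median difference over all genes tested was 0.02. Whether sequence differences between the strains change the binding of probes was not tested, so a called gene need not differ in RNA level. The 8 arrays of one strain lay entirely above or below the 8 of the other in 51 of the 147 genes. The same held for 94 of all genes tested (0.665%). Without animals 193 and 417 the count was 94, with 47 higher and 47 lower and 88 shared with the 147. Animal 417 alone moved the split, since without it 104 genes were called, 52 in each direction. Without IL16012 vehicle animal 414 the count was 89. Within scan 1 alone, with 2 arrays per strain, 19 genes were called and 16 of them were among the 147. In the later scans alone, where no scan holds both strains, 2 were called and 770 had an unadjusted p under 0.05.

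**Figure D1:**
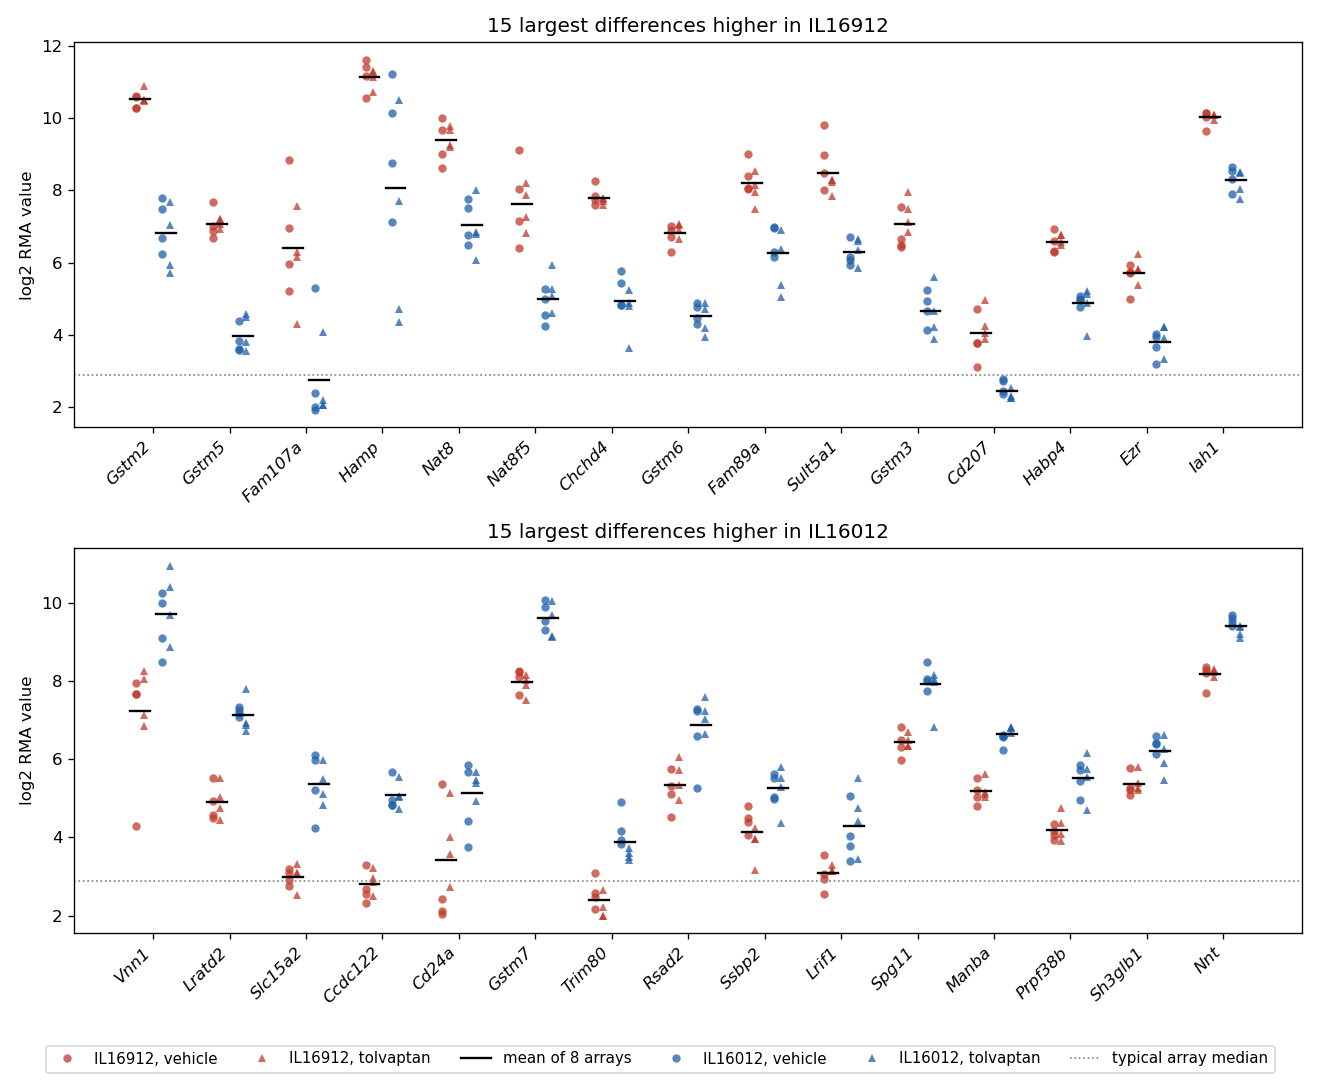
Log2 RMA value (vertical axis) of each of the 16 arrays for the 15 genes with the largest differences in each direction, IL16912 in red and IL16012 in blue, circles for vehicle and triangles for tolvaptan. Black bars are means of 8 arrays and the dotted line is the typical array median of 2.89; for Gstm2 the IL16912 arrays sit between 10.29 and 10.90 and the IL16012 arrays between 5.71 and 7.78.

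The largest difference was in the mu-class glutathione S-transferases. Gstm2 ranged from 10.29 to 10.90 with a median of 10.50 in IL16912, and from 5.71 to 7.78 with a median of 6.86 in IL16012. The groups did not overlap, and the fitted difference was 3.59 ± 0.47 (SE, adjusted p = 7.03e-10, limma), a fold of 12.05. Gstm5 ranged from 6.68 to 7.67 (median 7.04) in IL16912 and from 3.57 to 4.59 (median 3.83) in IL16012, a difference of 3.34 ± 0.31 (SE, adjusted p = 2.23e-18, limma). Again no array of one strain reached the range of the other.

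Gstm6 had a median of 6.90 (6.31 to 7.08) in IL16912 and of 4.61 (3.96 to 4.90) in IL16012, and differed by 2.47 ± 0.37 (SE). Gstm3 had a median of 6.99 (6.43 to 7.97) against 4.68 (3.90 to 5.60), and differed by 2.10 ± 0.40 (SE), with a second probe set at 2.92, whose IL16012 mean of 1.83 is dim signal. Gstm7 went the other way, with 7.50 to 8.24 (median 8.06) in IL16912 and 9.11 to 10.07 (median 9.60) in IL16012. Its difference was -1.86 ± 0.26 (SE, adjusted p = 1.27e-08, limma). All 5 genes were called, separated the 2 strains without overlap and kept their calls when any 1 array was left out. Their neighbours Gstm1 and Gstm4 differed by 0.65 ± 0.21 (SE, adjusted p = 0.118) and -0.79 ± 0.28 (SE, adjusted p = 0.195, limma), and neither passed in the fit with scan date. Of the other tested glutathione S-transferases, which include alpha, pi, theta and microsomal forms, none passed. The list as a whole had 4 members called higher and 1 lower of 18, with a median of 0.25 beside 0.02 for all genes. Gstm genes are similar in sequence, so a probe set of one may also bind RNA of another, and the split between members is uncertain to that degree.

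The reference promoters of 3 of these genes are shown because 2 were the genes most raised in IL16912 and the third was the member that went the other way. They are RefSeq windows of assembly GRCm38.p6, from 250 bases before to 50 after the start of the gene, and give the reference mouse sequence, not that of IL16912 or IL16012. The letters searched were TGACNNNGC on both strands, the core of the antioxidant response element through which NRF2 acts on many detoxification genes, and matches are in capitals. Gstm2 and Gstm5 have 1 window each. The window of Gstm7 is the second of 2, the one that holds a match. In order, the windows are chr3:107986371-107986670 on the minus strand, chr3:107895604-107895903 on the plus strand and chr3:107931565-107931864 on the minus strand.
Gstm2: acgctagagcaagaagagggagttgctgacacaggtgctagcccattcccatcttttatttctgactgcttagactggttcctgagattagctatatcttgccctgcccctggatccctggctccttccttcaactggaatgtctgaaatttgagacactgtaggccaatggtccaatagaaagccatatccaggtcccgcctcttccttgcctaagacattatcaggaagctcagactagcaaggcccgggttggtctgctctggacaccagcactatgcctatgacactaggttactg
Gstm5: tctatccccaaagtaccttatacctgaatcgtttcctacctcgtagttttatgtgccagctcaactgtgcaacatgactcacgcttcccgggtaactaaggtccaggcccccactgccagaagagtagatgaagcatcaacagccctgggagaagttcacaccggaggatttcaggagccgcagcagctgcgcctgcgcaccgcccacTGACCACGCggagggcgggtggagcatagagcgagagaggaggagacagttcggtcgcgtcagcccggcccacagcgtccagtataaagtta
Gstm7: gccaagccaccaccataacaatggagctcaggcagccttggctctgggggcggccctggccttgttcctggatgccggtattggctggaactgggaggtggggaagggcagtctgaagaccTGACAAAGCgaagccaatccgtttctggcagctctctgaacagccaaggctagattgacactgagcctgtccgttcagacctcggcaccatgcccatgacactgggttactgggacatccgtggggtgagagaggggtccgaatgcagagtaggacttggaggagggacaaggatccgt
The letters occur once in the Gstm5 window, beginning 42 bases before the start, and once in the Gstm7 window, 129 bases before it, and do not occur in the Gstm2 window or in those of Gstm3 and Gstm6. Over all 32851 windows 12.4% hold them.

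Hamp, which encodes hepcidin, was even in IL16912 and scattered in IL16012. It ranged from 10.55 to 11.61 (median 11.22) in IL16912. In IL16012 the vehicle animals 411 to 414 measured 10.13, 11.23, 8.76 and 7.14, and the tolvaptan animals 415 to 418 measured 7.72, 4.36, 4.72 and 10.49. The groups overlapped, and 2 IL16012 animals under tolvaptan lay below every vehicle animal by more than 2 log2 units. The difference was 3.18 ± 0.48 (SE, adjusted p = 2.74e-07, limma). That error comes from the spread shared over all strains, while the SD among the IL16012 arrays was 2.58 and among the IL16912 arrays 0.35. In a fit of the 16 arrays alone, which uses their own spread, the difference was 3.08 (adjusted p = 0.0291, limma). Both probe sets of the gene were called. Hamp2, a close copy of Hamp that is named after its value was seen, had means of 10.77 ± 0.63 and 9.49 ± 1.81 (SD, n = 8) and did not pass (adjusted p = 0.632, limma). Of the 22 tested genes in the list of heme and iron handling, Hamp was the only one called, and the list's median was 0.08. The list does not hold every such gene. Outside it, the mitochondrial iron carrier Slc25a37 was called lower in IL16912, with strain levels of 8.00 and 8.62 (scan effects removed). Nfs1, of iron-sulfur cluster assembly, was called higher, at 9.40 and 8.94. Both are named after their values were seen. The transferrin receptor Tfrc differed by -0.70 ± 0.32 (SE, adjusted p = 0.436, limma) and ferroportin, Slc40a1, by 0.11 ± 0.24 (adjusted p = 0.949).

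Among single genes higher in IL16912, Nat8, which acetylates cysteine conjugates in the last step of mercapturic acid synthesis, ranged from 8.62 to 10.00 (median 9.46) in IL16912 and from 6.07 to 8.02 (median 6.83) in IL16012. Its relative Nat8f5, the next tested gene on chromosome 6, ranged from 6.40 to 9.13 against 4.25 to 5.93. The differences were 2.97 ± 0.50 and 2.67 ± 0.46 (SE, adjusted p = 4.85e-06 and 9.38e-06, limma), and neither pair of groups overlapped. Nat8 and Nat8f5 too are similar genes whose signals may mix. The sulfotransferase Sult5a1 had a median of 8.29 (7.84 to 9.81) against 6.26 (5.85 to 6.70), a difference of 2.15 ± 0.53 (SE, adjusted p = 0.0136, limma). That call was lost without IL16912 vehicle animal 194, the highest of the group at 9.81. Sult5a1 was the only one of 9 sulfotransferases called. Iah1, an esterase that hydrolyses isoamyl acetate, had the lowest adjusted p of all genes. It ranged from 9.65 to 10.15 in IL16912 and from 7.77 to 8.64 in IL16012, a difference of 1.76 ± 0.16 (SE, adjusted p = 2.49e-19, limma).

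Chchd4, the oxidoreductase that folds proteins imported into the mitochondrial intermembrane space, ranged from 7.59 to 8.25 (median 7.76) in IL16912 and from 3.65 to 5.76 (median 4.86) in IL16012. The difference was 2.61 ± 0.27 (SE, adjusted p = 1.12e-15, limma). Of 39 called genes that were followed through all 29 alternatives, Chchd4 alone kept its call in each. The other 38 were not called in the later scans alone. None changed sign there, but for the genes named by the size of their difference the naming rule had required this. Habp4, a protein that binds hyaluronan and RNA, had medians of 6.58 and 4.99 and differed by 1.78 ± 0.22 (SE). Ezr, which ties the plasma membrane to actin, had medians of 5.77 and 3.94 and differed by 1.78 ± 0.28 (SE), with 1.07 in scan 1 alone. Fam89a, with medians of 8.12 and 6.34, differed by 2.27 ± 0.36 (SE), and in the later scans alone by 1.41. In these 4 genes the groups did not overlap.

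Cd207, which encodes langerin, a lectin of Langerhans cells and some other dendritic cells, had a median of 3.97 (3.12 to 4.98) in IL16912. In IL16012 it had a median of 2.41 (2.25 to 2.79), and all 8 of those arrays lay below the typical array median, so the difference of 1.83 ± 0.40 (SE, adjusted p = 0.00217, limma) is against dim signal. None of 11 Kupffer cell and macrophage markers was called, and their mean level was 5.61 to 6.49 in IL16912 and 5.64 to 6.70 in IL16012. Of 10 MHC class II genes, which dendritic cells also express, 9 had a positive difference with a median of 0.41, and none was called. Whether cell content has a part in the Cd207 difference was not tested, and in whole liver fewer cells of a type and less RNA per cell cannot be told apart. Fam107a, an actin-associated protein, varied widely within both strains. It ranged from 4.31 to 8.84 (median 6.24) in IL16912 and from 1.94 to 5.29 (median 2.14) in IL16012, where 6 arrays were at or below 2.41 and animals 412 and 416 were at 5.29 and 4.09. Its difference was 3.23 ± 0.69 (SE, adjusted p = 0.00158, limma), with 5.20 in scan 1 alone and 1.82 as the mean of its 3 probe sets. The 6 low IL16012 arrays lay below the typical array median, so this size too is against dim signal.

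Among genes lower in IL16912, Vnn1, a pantetheinase and PPAR-alpha target, had the largest difference. It ranged from 4.29 to 8.24 (median 7.67) in IL16912 and from 8.47 to 10.94 (median 9.84) in IL16012, a difference of -2.56 ± 0.56 (SE, adjusted p = 0.00224, limma). Vehicle animal 194 was far below the rest of its strain at 4.29, and without it the value was -2.07 and not called. Scan 1 alone, which holds animal 194, gave -3.87. Of the 20 tested genes in the list of PPAR-alpha targets Vnn1 was the only one called, and that list's median was -0.15.

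Lratd2, an LRAT domain protein, ranged from 4.44 to 5.53 (median 4.84) in IL16912 and from 6.72 to 7.79 (median 7.13) in IL16012. The difference was -2.53 ± 0.34 (SE, adjusted p = 3.45e-09, limma), and it was -2.51 in scan 1 as well as -2.52 in the later scans. Slc15a2, the peptide transporter PEPT2, had medians of 3.09 and 5.36 and differed by -2.26 ± 0.36 (SE), by -1.37 in the later scans, or by -0.81 as the mean of its 3 probe sets, of which 1 lay above the typical array median. Ccdc122 ranged from 2.33 to 3.29 and from 4.72 to 5.68 and differed by -2.16 ± 0.32 (SE). Trim80, of the TRIM family, had medians of 2.34 and 3.79 and differed by -1.49 ± 0.30 (SE). The medians of Ccdc122 and Trim80 in IL16912 lay below the typical array median, so these sizes are against dim signal. In none of these 4 genes did the strains overlap.

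Nnt, the mitochondrial transhydrogenase that makes NADPH, ranged from 7.68 to 8.35 (median 8.24) in IL16912 and from 9.09 to 9.68 (median 9.40) in IL16012, a difference of -1.12 ± 0.16 (SE, adjusted p = 3.51e-08, limma). Manba, the lysosomal beta-mannosidase, had medians of 5.12 and 6.63 without overlap and differed by -1.18 ± 0.24 (SE). Spg11, which takes part in the renewal of lysosomes, had medians of 6.42 and 8.01 and differed by -1.23 ± 0.28 (SE), with -1.67 in scan 1 and -0.41 in the later scans. Sh3glb1, which bends membranes in autophagy, had medians of 5.27 and 6.32 and differed by -1.13 ± 0.16 (SE). The splicing factor Prpf38b differed by -1.16 ± 0.26, the transcription cofactor Ssbp2 by -1.32 ± 0.28 and the nuclear receptor-interacting Lrif1 by -1.28 ± 0.28 (SE). These last 3 overlapped between the strains, as did Spg11 and Sh3glb1. Prpf38b was at -0.77 in the later scans, Ssbp2 at -0.56 as the mean of its probe sets, and Lrif1 lost its call without IL16012 animal 414.

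Rsad2, the interferon-induced antiviral protein viperin, ranged from 4.53 to 6.05 (median 5.32) in IL16912 and from 5.25 to 7.60 (median 7.13) in IL16012, with the IL16012 vehicle animal 411 at 5.25. It differed by -1.43 ± 0.32 (SE, adjusted p = 0.00375, limma), and all 3 of its probe sets were called. Of the 33 tested genes in the interferon-responsive list Rsad2 was the only one called, and 20 had a negative difference, with a median of -0.12. Ifi44l, an interferon-induced gene outside the list, was also called lower in IL16912, at -0.731 and -0.887 in its 2 probe sets. Its strain levels were dim, 2.21 and 2.94 with scan effects removed, and it is named after its values were seen. Cd24a, a surface glycoprotein of progenitor and bile duct cells, ranged from 2.03 to 5.36 in IL16912 and from 3.76 to 5.85 in IL16012 and differed by -1.87 ± 0.53 (SE, adjusted p = 0.0465, limma). That call was lost without any one of 12 of the 16 arrays, and in a fit of the 16 arrays alone. The mean of 6 bile duct markers was 2.49 to 3.53 in IL16912 and 2.41 to 2.99 in IL16012, none was called, and their part in the Cd24a difference was not tested.

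Gene lists of liver functions mostly held 1 called member or none. Of 31 lists 15 held none, 14 held 1, and only the glutathione S-transferases and the genes of gluconeogenesis and glycogen held more. Of the 547 tested genes in the lists 18 were called, or 3.29%, against 1.04% of all genes. The lists overlap, do not hold every gene of their function and were chosen with results of these data known. In coagulation, F12, coagulation factor XII, was called of 18, with 11.54 to 11.81 in IL16912 and 9.30 to 10.69 in IL16012 and a difference of 1.36 ± 0.14 (SE, adjusted p = 1.12e-15, limma). In fat synthesis and storage, Pklr, the liver pyruvate kinase, was called of 25, with 7.79 to 9.13 against 6.60 to 7.15 and a difference of 1.45 ± 0.29 (SE), which was 0.94 in the later scans. In both genes the strains did not overlap. In glycogen and gluconeogenesis, 2 of 18 were called, the glycogen-targeting phosphatase subunit Ppp1r3b at 1.26 ± 0.34 (SE, adjusted p = 0.0339) and the ketohexokinase Khk at 0.58 ± 0.17 (SE, adjusted p = 0.04998, limma), just inside the threshold. The Ppp1r3b call was lost without any one of 9 arrays and the Khk call without any one of 13, and Khk was at 0.32 in the later scans.

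Smaller differences were called in Sardh, the sarcosine dehydrogenase, at 0.77 ± 0.18 (SE), the flavin monooxygenase Fmo5 at 0.75 ± 0.20, the acyl-CoA thioesterase Acot7 at 0.67 ± 0.16 and the tetraspanin Tspan4 at 0.76 ± 0.21. Sardh did not overlap between the strains (10.82 to 11.17 against 9.67 to 10.81) and kept its call without any 1 array. Fmo5, Acot7 and Tspan4 were no longer called without animals 193 and 417. Leaving out a single array ended the call of Fmo5 in 5 cases, of Acot7 in 1 and of Tspan4 in 8. Khk and Tspan4 were also not called in a fit of the 16 arrays alone. No member was called among cytochromes P450, UDP-glucuronosyltransferases, carboxylesterases, drug and bile acid transporters, MHC genes, complement, serpins, bile acid synthesis or endoplasmic reticulum stress.

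The cholesterol synthesis list had the highest median, 0.72 over 16 members, all of them positive. Only the sterol reductase Tm7sf2 was called, at 0.70 ± 0.17 (SE, adjusted p = 0.0105, limma), and it lost the call without IL16012 animal 414 or 417 and in a fit of the 16 arrays alone (adjusted p = 0.112). Cyp51, lanosterol demethylase, was at 1.57 ± 0.48 (SE, adjusted p = 0.0859), and Nsdhl at 1.36 ± 0.44 (SE, adjusted p = 0.123, limma). The size of this shift depended on the scan term. The plain means, without it, were higher in IL16912 for 14 of 16 members with a median of 0.35. Within scan 1 alone the median was 0.84 with 15 of 16 positive.

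The strain differences were present under both treatments. On vehicle arrays alone 29 genes were called (0.205%), 17 higher and 12 lower in IL16912, and on tolvaptan arrays alone 49 (0.347%), 37 higher and 12 lower. The lists shared 20 genes, 69.0% of the vehicle list and 40.8% of the tolvaptan list, all of the same sign. Of the 29 vehicle calls, 29 had the same sign in the tolvaptan arrays and 28 an unadjusted p under 0.05 there. Of the 49 tolvaptan calls, 48 had the same sign in the vehicle arrays and 39 an unadjusted p under 0.05. The animals differ, but both comparisons share the scan effects and residual spread of the fit. Under both treatments scan 3 held more IL16912 arrays than any other scan, and most IL16012 arrays were in scan 4. The layouts were not the same, since IL16912 vehicle animal 193 was in scan 6. An error in the scan term could thus act in the same direction in both, and the shared signs are not independent support. The tolvaptan count depended on single animals, with 26 without IL16012 animal 417, 28 and 32 without IL16912 animals 198 and 197, and 100 and 84 without IL16012 animals 416 and 418. The vehicle count was 19 without IL16912 animal 193.

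**Figure D2:**
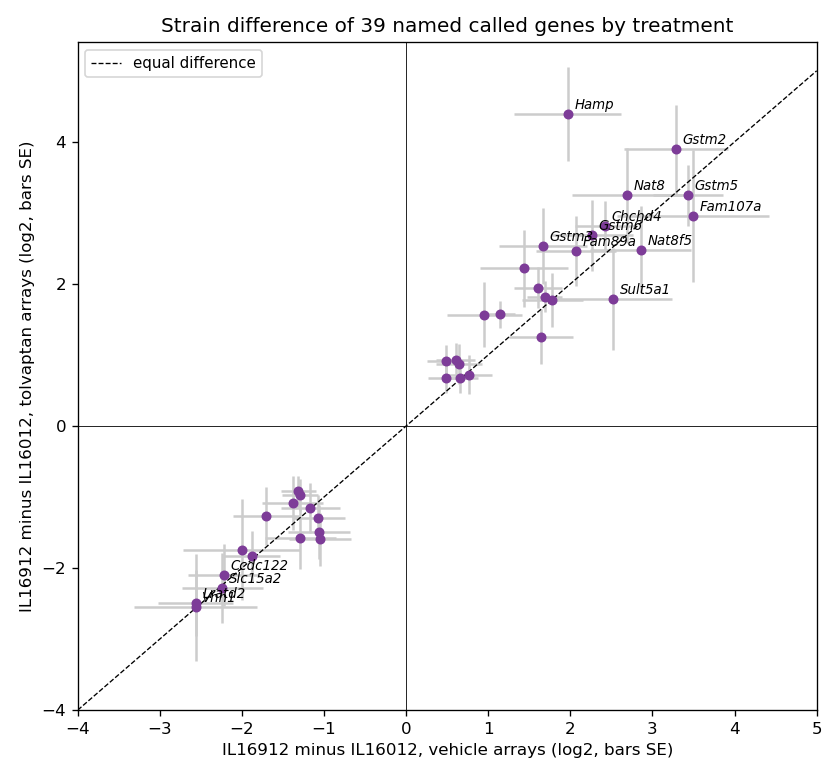
Difference IL16912 minus IL16012 on vehicle arrays (horizontal axis) and on tolvaptan arrays (vertical axis), both log2 with SE bars, for the 39 genes named by the rule and called over both treatments. The dashed line marks equal differences, and Hamp sits above it at 1.97 and 4.39. The genes were chosen by a call on the mean of the plotted differences, and both axes share the scan effects of the fit. That the points lie along the line in both directions is thus partly built in.

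The tolvaptan response was then compared within and between the strains. No gene passed (0%) for tolvaptan minus vehicle in IL16912, in IL16012 or for the difference of the 2 responses (limma with Benjamini-Hochberg adjustment). An unadjusted p under 0.05 was found for 284 genes in IL16912 (2.01%), 767 in IL16012 (5.43%) and 355 for the difference (2.51%). If no gene responded, a share of about 0.05 would be found by chance. The shares for IL16912 and for the difference lay below that, and the one for IL16012 was near it. The count for IL16012 rested on single arrays, with 15 genes called without its tolvaptan animal 418, 8 without 416, 6 without 415 and 2 without vehicle animal 414. Hamp was at 11.19 ± 0.46 under vehicle and 11.11 ± 0.26 under tolvaptan in IL16912 (SD, n = 4). In IL16012 it was 9.32 ± 1.77 under vehicle and 6.82 ± 2.87 under tolvaptan (SD, n = 4), a difference of -2.49 ± 0.61 (SE, adjusted p = 0.150, limma). The responses of Hamp differed by 2.42 ± 0.88 (SE, unadjusted p = 0.00604 in the limma fit), which did not pass after adjustment. The strain difference was accordingly 1.97 ± 0.65 on vehicle arrays (adjusted p = 0.335) and 4.39 ± 0.65 on tolvaptan arrays (SE, adjusted p = 3.36e-07, limma). The SE and p of these Hamp comparisons rest on the spread shared over all strains, not on the wider spread within the IL16012 groups.

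None of 7 genes tied to the drug or to its average effect in this panel passed the test between the strains. Avpr1a, a vasopressin receptor of hepatocytes, had means of 5.52 ± 0.54 and 5.53 ± 0.99 (SD, n = 8), and Cyp3a11, a main drug-oxidizing cytochrome P450, 13.11 ± 0.06 and 13.05 ± 0.13. Cyp2b10, a target of the nuclear receptor CAR, ranged from 6.86 to 8.79 in IL16912 and from 3.78 to 7.32 in IL16012. Its difference of 1.77 ± 0.87 (SE, adjusted p = 0.490, limma) did not pass, and in a fit of the 16 arrays alone it was called at 2.39 (adjusted p = 0.00700, limma). Derl3, of endoplasmic reticulum-associated degradation, was 1.46 ± 0.89 higher under tolvaptan in IL16912 and 1.79 ± 0.88 in IL16012 (SE), and Saa3, an acute phase protein, 0.99 and 0.96, none of which passed. Alas1, the first enzyme of heme synthesis, differed by 0.12 and 0.75 between treatments, and the protease inhibitor Slpi by -0.22 and -0.04.

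Called genes often lay close together on the chromosomes. Of the 146 called genes with a known place in RefSeq gene order, 77 (52.7%) had another called gene within 15 tested genes, against 21.4% of all placed genes. Joined in this way they formed 25 runs of 2 or more, and 5 runs of 4 or more held 33 of them. Chromosome 3 held 29 of its 705 tested genes (4.11%), chromosome 13 held 13 of 506 (2.57%) and chromosome 9 held 0 of 778. Genes of a family can also share signal on the array, which adds to such runs.

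**Figure D3:**
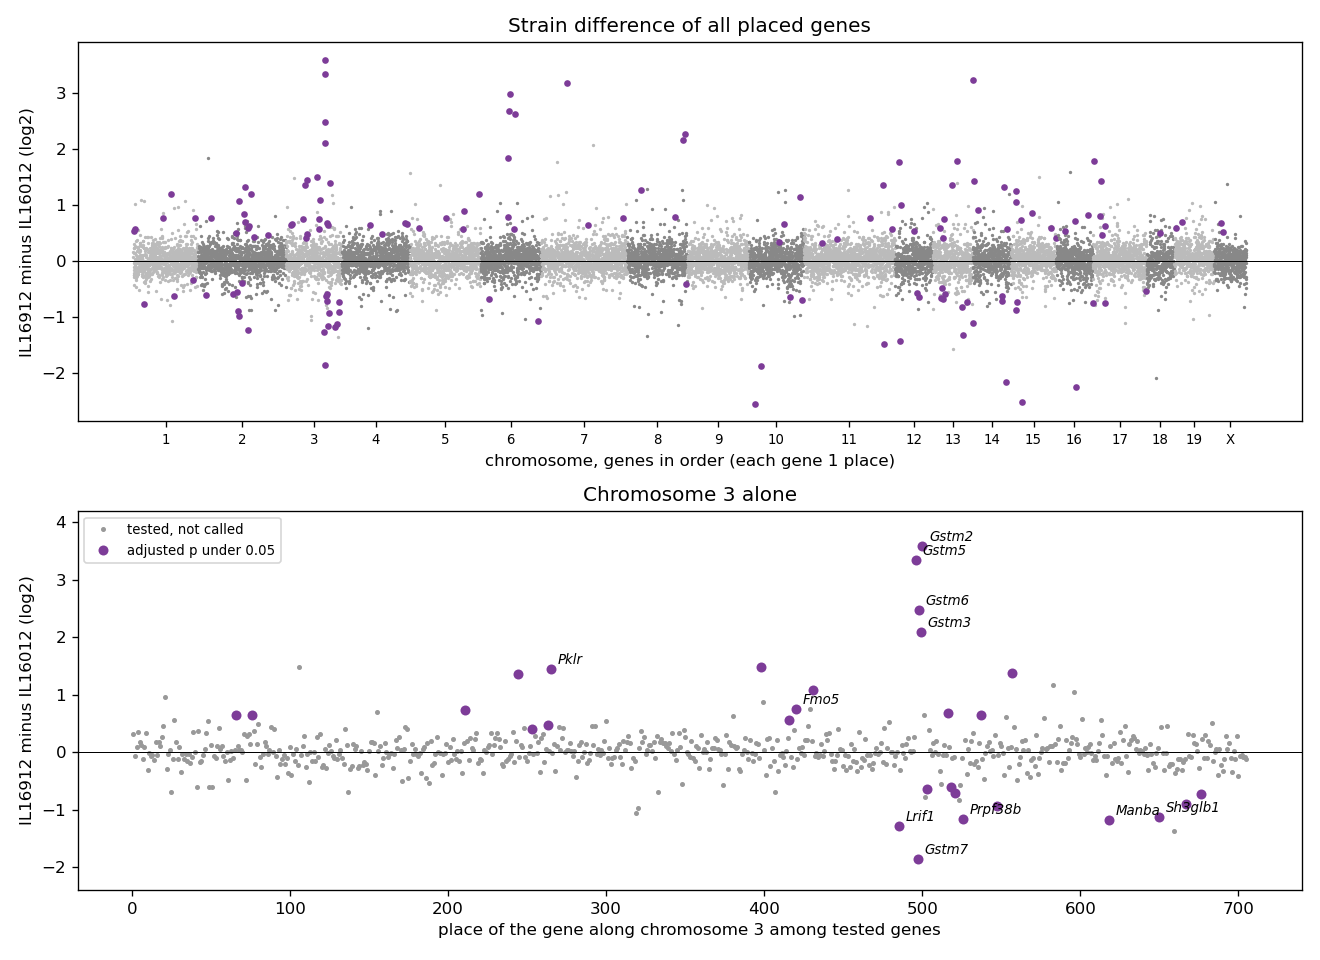
Strain difference (log2, vertical axis) of each placed gene in chromosomal order, 1 place per tested gene, over all chromosomes (top) and for chromosome 3 alone (bottom). Purple points are the genes at adjusted p under 0.05; on chromosome 3 the Gstm genes stand together, with Gstm2 at 3.59 and Gstm7 at -1.86.

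The longest run, on chromosome 3, held 14 called genes among 73 tested, 7 higher and 7 lower. It starts with Lrif1, takes in Gstm5, Gstm7, Gstm6, Gstm3 and Gstm2, which follow each other with no other tested gene between them, and ends with Slc44a3, a choline transporter-like protein. Slc44a3 differed by 1.39 ± 0.30 (SE), Ampd2, an AMP deaminase, by -0.63 ± 0.16 and Frrs1 by -0.94 ± 0.24. These 3 genes are named for their place in the run, after their values were seen. A second run on chromosome 3 held Tmem79, Lamtor2, Dap3 and Pklr, all higher. On chromosome 13 a run held 6 called genes of 43, among them the fatty acid oxidation enzyme Eci2 at -0.69 ± 0.15 (SE). On chromosome 2 a run held 5 of 38, among them the hyaluronan receptor Cd44 at -0.89 ± 0.23 (SE). On chromosome 15 a run held 4 of 12, among them the syndecan Sdc2 at 1.04 ± 0.18 (SE). Among these 5 runs, all but the one with Pklr held both higher and lower genes.

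Set against the other 43 strains, either member of the pair could hold the level farther from most of them, depending on the gene. For 82 of the 147 genes most other strains were nearer to IL16912, and for 65 nearer to IL16012. The level of IL16012 was the lowest of all 45 strains in 15 of the genes and the highest in 6, and that of IL16912 was the lowest in 6 and the highest in 7. These genes were selected for a difference between the strains of the pair, which favours extreme levels in either. The same counts are not given for all genes tested, so they cannot show whether either strain is unusual. Hamp was one of the genes in which the mean level of IL16012 was lowest. It was 7.90 with scan effects removed, while IL16912 was at 11.08 and the other strains between 9.99 and 12.09. That mean covers scattered animals. As measured, IL16012 animals 411, 412 and 418 were at 10.13, 11.23 and 10.49, inside the range of the other strains, and its remaining animals at 4.36 to 8.76. Gstm5 was at 3.75 in IL16012 and between 5.18 and 8.12 in the others. F12 at 10.26, Iah1 at 8.27 and Habp4 at 4.82 were also lowest in IL16012, with the lowest other strains at 10.33, 8.40 and 5.04.

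Chchd4 was at 7.73 in IL16912 and 5.11 in IL16012, where 36 of 43 other strains lay nearer to IL16912 and 7 nearer to IL16012. Gstm2 followed a like pattern, with 34 nearer to IL16912 (10.37) and 9 nearer to IL16012 (6.77). For Vnn1 and Lratd2 it was IL16912 that was lowest of all strains, at 7.34 and 4.89. Both were near ties, with the lowest other strains at 7.35 and 4.92, and the Vnn1 level includes animal 194 at 4.29. For Nnt 37 strains lay nearer to IL16012 (9.31) and 6 nearer to IL16912 (8.19). Nat8f5 was highest of all in IL16912, at 7.70, and Lrif1 highest of all in IL16012, at 4.41. Here too the margins were small, with the highest other strains at 7.65 and 4.33.

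**Figure D4:**
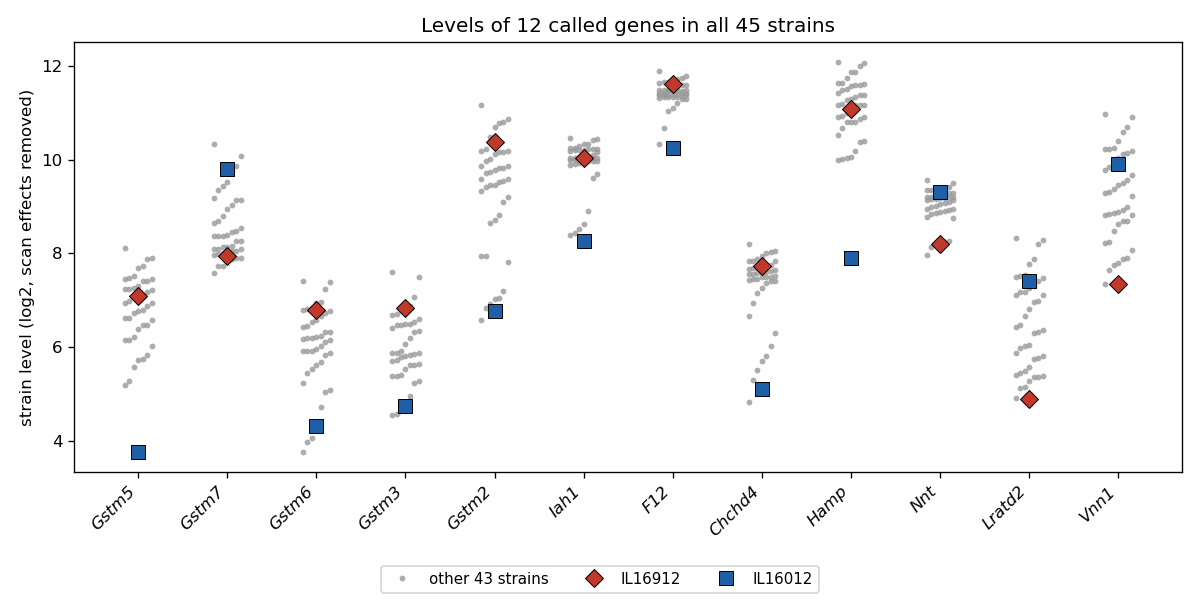
Strain level (log2 with scan effects removed, vertical axis) of 12 called genes in IL16912 (red diamonds), IL16012 (blue squares) and the other 43 strains (grey points). IL16012 lies below all other strains for Gstm5, F12, Iah1 and Hamp, and IL16912 lies below all others for Lratd2 and Vnn1. The margin is small for F12, Lratd2 and Vnn1.

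How alike the pair is was measured in 2 ways, both given as a description, since the pair was picked for it. Over the 500 probe sets that best separate the 45 strains, the array medians of IL16912 and IL16012 for each probe set correlated at 0.834, the third highest of 990 pairs. Scan effects were not removed from these medians. The points are probe sets measured on the same arrays and are not independent. The 2 higher pairs were at 0.980 and 0.937, the next lower at 0.363, and the median pair at -0.03. The 147 genes called between IL16912 and IL16012 were the fourth fewest of all pairs, where counts ran from 9 to 6086 with a median of 1847. Of the 147 genes, 10 have their probe set among those 500.

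Each of the 16 arrays was also compared with the profiles of both strains. It correlated at 0.851 to 0.946 with the other arrays of its own strain, at 0.704 to 0.834 with the other strain of the pair, and at no more than 0.231 with any of the other 43. The probe sets were chosen to separate the strains over all arrays, these 16 included, so this order is partly built in. Elsewhere in the series 34 arrays correlated under 0.5 with their labelled strain, and none of them belongs to this pair. They do enter the fit over all arrays and the levels of the other strains. Without them 218 genes were called between IL16912 and IL16012. With genes called without it, each of the 16 arrays lay nearer to its own strain, on values from which scan effects were not removed. Of the 147 called genes 84 have 1 probe set and 63 have several. In 52 of the 63 all probe sets had the same sign, and in none was a second probe set called in the opposite direction.

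**Figure D5:**
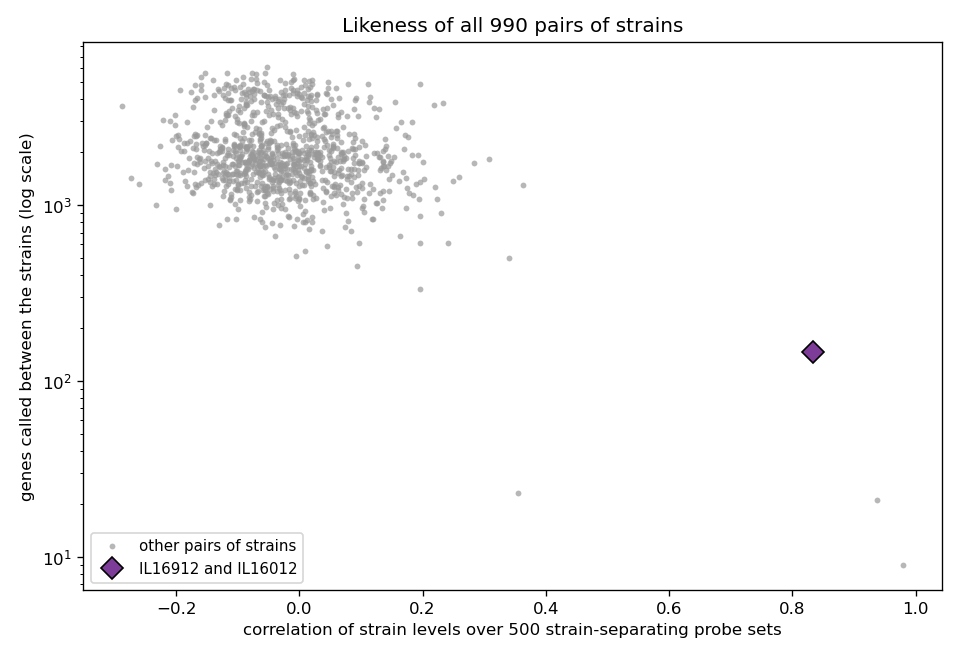
Number of genes called between 2 strains (vertical axis, log scale) against their correlation over 500 strain-separating probe sets (horizontal axis) for all 990 pairs of strains. The correlation uses the median of each strain's arrays, with scan effects not removed. The pair IL16912 and IL16012 (diamond) is at 0.834 with 147 genes, and 2 pairs lie to its right.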

How the data were processed

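Liver RNA of 354 male mice was measured on 1-colour Affymetrix HT_MG-430 PM arrays. The deposited values are log2 intensities. Per the submitters' processing notes, the authors used RMA and the Affymetrix Expression Console. Versions, and whether all arrays were normalized together, are not given in the sources used here. Arrays have no read depth, and their number limits the precision. The table held 42597 probe sets, of which 27691 had 1 gene symbol, 493 several and 14376 none, besides 37 control probe sets. A gene took the values of whichever of its probe sets, among those with 1 symbol, had the highest average over the arrays, and 14125 genes above the array median on at least 4 arrays were tested. Gene order, names and promoter windows come from RefSeq (GRCm38.p6), whose tables held the Entrez identifiers of 27494 probe sets.

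Differences were estimated with limma 3.58.1 (R 4.3.3). The design had a mean per group of strain and treatment and a term for scan date, with 6 scans numbered from the earliest. The residual spread of a gene was shared over all strains, and the fitting script was tested on simulated data. Tests were two-sided at an adjusted p of 0.05 (Benjamini-Hochberg over all genes). Genes named were the 15 largest called differences in each direction with the same sign in scan 1 and later and a level above the typical array median, up to 3 called members of each of 31 gene lists, and 7 genes tied to the drug. The strains, the lists and the rule were chosen with earlier results of these data known. Runs joined called genes at most 15 tested genes apart. Alternatives changed the arrays, scans, normalization, filter, probe set rule and moderation. That of leaving out animals 193 and 417 was chosen after seeing the data.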

Additional observations from a re-analysis of the deposited data

Results flagged for a closer look

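Within the 4 groups of 4 animals, the highest or lowest array of some named genes stood far from the other 3. The gap to the nearest was compared with the range of the group, using Dixon's critical value for 4 samples. This marked 17 of 184 groups (9.24%), where chance gives about 1 in 20. The values below are log2, and no cause was tested.

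Among IL16912 vehicle animals, Vnn1 was 4.29 in animal 194 and 7.66 to 7.94 in the others. Cd24a was 5.36 in animal 192 against 2.43 or less, and Ppp1r3b was 8.34 in the same animal against 9.06 or more. Among IL16912 tolvaptan animals, Gstm2 was 10.9 in animal 198 against 10.51 or less, and Alas1 was 10.93 in animal 198 against 11.43 or more. Animal 197 was lowest in Sult5a1 (7.84 against 8.24 or more) and in Iah1 (9.94 against 10.09 or more). Animal 196 was highest in Lrif1 (3.30 against 3.15 or less) and in Avpr1a (6.57 against 5.25 or less).

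Among IL16012 vehicle animals, Fam107a was 5.29 in animal 412 against 2.41 or less. Ccdc122 was 5.68 and Saa3 9.61 in animal 413, against 4.96 and 7.15 or less. Manba was 6.24 in animal 411 against 6.56 or more, and Khk was 10.37 in animal 414 against 10.85 or more. Among IL16012 tolvaptan animals, Fam107a was 4.09 in animal 416 against 2.20 or less. In animal 417, an array with a large spread in relative log expression, Spg11 was 6.81 against 7.98 or more and Slpi was 3.23 against 4.29 or more.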

How the results depend on the processing

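Counts of genes called between the strains stayed within 1.5 times of 147 with quantile normalization, other filters on dim genes, the mean of all probe sets, trended moderation and the arrays off their strain left out. They were 247 in the 16 arrays without a scan term, 248 with scan 1 against later scans, 267 without a scan term over all arrays, 267 for probe sets tested singly (of 33046), 2 in the later scans, 19 in scan 1 and 94 without animals 193 and 417. Leaving out single arrays gave 89 to 171. In the same order the vehicle count of 29 became 47, 49, 44, 56 and 3, and 19 without animals 193 and 417, with 51 without the arrays off their strain and 19 to 32 without single arrays. The tolvaptan count of 49 became 74 with scan 1 against later scans, 106 for probe sets, 2 in the later scans, 24 without both animals, 103 without the arrays off their strain, and 26 to 100 without single arrays. The response in IL16012, 0 as fitted, had 1 call without the arrays off their strain, 1 after quantile normalization, 1 for probe sets and 8 in the later scans, and 0 to 15 without single arrays. The response in IL16912 and the difference of responses had 0 calls in each alternative. The cause of these changes was not tested. The likeness of the pair was 0.772 over 1000 and 0.871 over 300 probe sets, with rank 3 of 990 pairs each time.

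None of the 39 called genes named by the rule changed sign under 29 alternatives, and 29 kept their call without any single array. In the later scans, where scans and strains are linked only through other strains, 38 lost it, and in scan 1 with 4 arrays 26 did. Among the uncalled genes some signs turned. Derl3 was -0.396 in 3 fits (16 arrays with and without a scan term, all arrays without one), -0.895 in the later scans, -0.072 in scan 1, and -0.079 to 0.429 without single arrays. Alas1 was 0.225 in the same 3 fits, 1.353 in the later scans, 0.049 without animals 193 and 417, and -0.253 to 0.221 without single arrays. Slpi was 0.189 in the 3 fits. Avpr1a was -0.009 in the 3 fits, -1.368 in the later scans, -0.035 as the mean of probe sets, -0.042 without animals 193 and 417, and -0.242 to 0.207 without single arrays. No paired analysis was possible because animal numbers are not shared between groups.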
